A study of Arabidopsis thaliana with 87 samples.

Results

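Transgene small RNA was compared between 2 classes of red Arabidopsis leaves that carried 35S RUBY in the wild-type background Col-0. Among these plants, the first class comprised the 13 libraries titled Fully Red and the second the 11 libraries titled Always Red. Thus 24 of the 87 libraries of the series entered the comparison, chosen by leaf class in the title, construct and background. Leaves were 4 weeks old, and the plants were kept at 22 °C under days of 18 h light and 6 h dark. Fully Red libraries came from 8 transgenic events (MK016, MK025, MK040, MK041, MK042, MK043, MK044 and MK045), and Always Red libraries came from 6 (MK010, MK016, MK034, MK042, MK044 and MK045). The 4 events MK016, MK042, MK044 and MK045 gave both classes, with 6 Fully Red and 8 Always Red libraries. All 13 Fully Red libraries shared their event and label number with a library of green parts and a library of red parts, and no Always Red library did, so the fully red leaves belonged to sets that also held green tissue. Beside them, 8 Always Red 35S RUBY libraries of dcl1234, from the events MK072 and MK073, gave the level in plants mutated in DICER-LIKE genes, and 7 Fully Red and 4 Always Red libraries of ZmUBQ RUBY in Col-0 gave the same contrast under another promoter. An event is 1 independent transgenic line, and libraries from the same event repeat 1 line. The labels do not say how many plants entered a library, nor whether libraries of the same event and number came from the same plant. The p-values therefore measure the spread between these libraries.

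RUBY is a reporter that encodes the enzymes of betalain synthesis, so that a leaf stays red while the transgene is expressed and turns green when it is silenced. In plants, silencing of a transgene starts when its RNA is copied into a double strand, from which DICER-LIKE enzymes cut small RNAs of fixed length from both strands. DCL4 makes 21 nt and DCL2 makes 22 nt small RNAs, which guide cleavage or repression of the transcript, and DCL3 makes 24 nt small RNAs, which guide DNA methylation. Fragments of other lengths, and reads of 1 strand only, also arise when a highly expressed mRNA is degraded without any DICER-LIKE cut.

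For RUBY as a whole, the files count reads of each length from 18 to 28 nt on each strand, which makes 22 classes. Values are in RPM, reads per 1000000 mapped reads of the library. They do not say which part of RUBY a read came from, and no sequence of the transgene was used here. Which of the plus and minus strands runs with the mRNA is not given in the sources used here. Mapped reads ranged from 0.905 to 30.7 M in Fully Red libraries (median 16.8 M), from 12.3 to 29.7 M in Always Red libraries (median 19.1 M) and from 14.0 to 22.4 M in dcl1234 libraries. Reads on the transgene ranged from 404 to 64493 in Fully Red libraries, from 2303 to 13279 in Always Red libraries and from 4843 to 8874 in dcl1234 libraries. The library with 0.905 M mapped reads was Fully Red MK044 number 3, while the next shallowest Fully Red library had 10.1 M. A count of 3 reads stood for 3.32 RPM in that library, for at most 0.299 RPM in the other Fully Red libraries and for at most 0.243 RPM in Always Red libraries. Its 404 transgene reads filled 15 of the 22 classes, and the results whose call it changes are given below with and without it. Among 133 pairs of libraries within the 2 classes, a chi-squared test on the 22 counts and the other mapped reads did not separate 2 pairs from sampling noise. They were Fully Red MK041 number 1 with MK043 number 2 and Always Red MK042 number 1 with MK045 number 2. Each of these pairs joins different events, so they were kept as separate libraries, and counting each pair as 1 sample changed no call among the 7 levels tested.

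Over all libraries, Fully Red leaves held more RUBY small RNA than Always Red leaves in all 7 levels tested. These were the total, each strand, 21, 22 and 24 nt, and the sum of the lengths other than 21 to 24 nt. The total in the 13 Fully Red libraries ranged from 446 to 2989 RPM with a median of 734 RPM, against 147 to 717 RPM with a median of 447 RPM in the 11 Always Red libraries. The classes overlapped: 7 of 13 Fully Red libraries lay above all Always Red libraries, and the other 6 lay among them. The highest Fully Red totals were 2989 RPM in MK016 number 5, 2225 RPM in MK040 number 2 and 1944 RPM in MK045 number 3. The lowest were 446 RPM in MK044 number 3, 464 RPM in MK041 number 2 and 588 RPM in MK043 number 1. In Always Red plants the extremes were 717 RPM in MK016 number 2 and 147 RPM in MK034 number 2. The 3 highest totals of the 24 libraries were thus Fully Red and the lowest was Always Red. Each library is a bulk leaf sample, so more cells with small RNA and more small RNA per cell cannot be told apart. On the log2(RPM + 1) scale, the Fully Red mean was higher by 1.18, a 2.26-fold difference of geometric means (95% interval 1.43 to 3.60; permutation p = 0.00084, adjusted over 7 levels 0.00118). With 1 mean per event and class, 8 Fully Red against 6 Always Red events, the difference was 1.08 (exact permutation, adjusted p = 0.027). The 4 events that gave both classes entered on both sides, and tests of the classes on event means did not pair them. The difference also passed without any 1 library and without any 1 event.

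**Figure D1:**
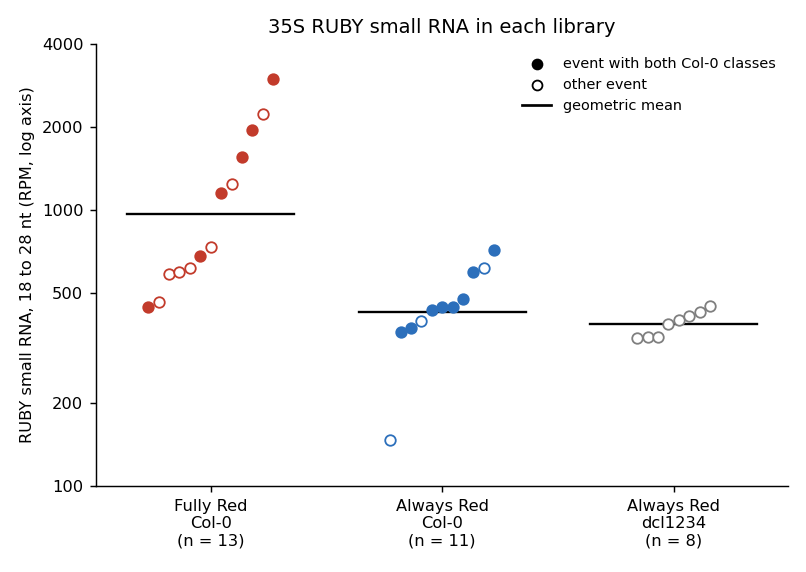
Total RUBY small RNA of 18 to 28 nt in RPM on a log axis, 1 point per library, in Fully Red Col-0, Always Red Col-0 and Always Red dcl1234 leaves. Filled points are events that gave both Col-0 classes and the line is the geometric mean. 7 of the 13 Fully Red points lie above the highest Always Red point at 717 RPM, and the dcl1234 points lie between 343 and 447 RPM.

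Both strands were higher in Fully Red leaves. On the plus strand, Fully Red libraries ranged from 285 to 1226 RPM (median 548 RPM), against 104 to 504 RPM (median 301 RPM) in Always Red libraries. The plus strand was 2.00-fold higher in Fully Red leaves (95% interval 1.39 to 2.90; permutation p = 0.00054, adjusted p = 0.00118). On the minus strand, Fully Red libraries ranged from 26.5 to 1762 RPM (median 247 RPM), against 43.2 to 214 RPM (median 148 RPM) in Always Red libraries. Here 8 Fully Red libraries lay above all Always Red libraries and 1, MK044 number 3, lay below all of them. The minus strand was 2.43-fold higher in Fully Red leaves, with a wide interval of 1.16 to 5.00 (permutation p = 0.0203, adjusted p = 0.0203). This call ended with 1 mean per event (exact permutation, adjusted p = 0.169) and when MK016, MK034, MK040 or MK045 was left out (permutation, adjusted p between 0.0511 and 0.0596). Without MK044 number 3, the minus strand difference was 1.58 on the log2 scale (permutation, adjusted p = 0.000647). Of the mean difference of 717 RPM between the classes, the minus strand made up 54.9% and the plus strand 45.1%. That order rests on means that the highest libraries carry: the Fully Red median exceeded the Always Red median by 99.2 RPM on the minus strand and by 247 RPM on the plus strand, and geometric means differed by 198 and 289 RPM on these strands.

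Small RNAs of 21 nt, the product length of DCL4, made up most of the difference between the arithmetic means of the classes. They ranged from 85.1 to 2012 RPM (median 348 RPM) in Fully Red libraries, against 65.5 to 314 RPM (median 215 RPM) in Always Red libraries. The 21 nt level lay above all Always Red libraries in 7 of 13 Fully Red libraries, and it accounted for 65.8% of the mean difference in RPM. That share rests on means that the highest libraries carry. Medians were 348 (Fully Red) and 215 RPM (Always Red) at 21 nt, against 734 and 447 RPM in total. Geometric means were 478 and 202 RPM at 21 nt, against 967 and 427 RPM in total. The 21 nt fold was 2.36 (95% interval 1.27 to 4.38; permutation p = 0.00825, adjusted p = 0.00962). Without MK044 number 3 the log2 difference was 1.45, against 1.24 with it (permutation, adjusted p = 0.000742 without it). With 1 mean per event the difference at 21 nt was 1.08 on the log2 scale and no longer passed (exact permutation, adjusted p = 0.101). At 22 nt, the product length of DCL2, Fully Red libraries ranged from 44.2 to 302 RPM (median 81.2 RPM), against 16.1 to 74.4 RPM (median 48.0 RPM) in Always Red libraries. The 22 nt level was 2.18-fold higher (95% interval 1.40 to 3.39; permutation p = 0.00077, adjusted p = 0.00118).

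Small RNAs of 24 nt, the product length of DCL3, were scarce in both classes. They ranged from 21.8 to 70.9 RPM (median 39.3 RPM) in Fully Red libraries, against 8.74 to 42.6 RPM (median 20.96 RPM) in Always Red libraries. This was 1.86-fold higher in Fully Red leaves (95% interval 1.34 to 2.60; permutation p = 0.00081, adjusted p = 0.00118). Most 24 nt reads were on the plus strand, with a mean of 34.1 ± 11.4 RPM (SD, n = 13) in Fully Red leaves and 21.3 ± 10.1 RPM (SD, n = 11) in Always Red leaves. On the minus strand, 24 nt reads averaged 10.7 ± 10.1 RPM in Fully Red leaves and 2.96 ± 0.837 RPM in Always Red leaves, and 8 Fully Red libraries lay above all Always Red libraries. The lengths other than 21 to 24 nt ranged from 120 to 566 RPM (median 239 RPM) in Fully Red libraries, against 49.0 to 248 RPM (median 134 RPM) in Always Red libraries. These lengths were 1.98-fold higher (95% interval 1.38 to 2.86; permutation p = 0.00076, adjusted p = 0.00118) and made up 19.9% of the mean difference in RPM.

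Taken class by class, 19 of the 22 length and strand classes (86.4%) were higher in Fully Red leaves by the permutation test with Benjamini-Hochberg adjustment over 22, and 0 were lower, also at an unadjusted p under 0.05. All 11 minus strand classes passed and 8 of 11 plus strand classes passed, and the 3 that did not were 26, 27 and 28 nt on the plus strand. On the log2(RPM + 1) scale, which understates folds of scarce classes, the largest folds were at 20 nt minus, 2.84-fold (95% interval 1.37 to 5.92), and at 19 nt minus, 2.57-fold (95% interval 1.15 to 5.65). In edgeR's fit to the counts the scarce 26 nt minus class came first, with a log2 fold change of 2.54, against 2.45 for 20 nt minus. It averaged 0.909 RPM in Fully Red leaves and 0.164 RPM in Always Red leaves and was 1.50-fold higher on the log2(RPM + 1) scale. The 20 nt minus class averaged 30.3 ± 37.4 RPM (SD, n = 13) in Fully Red leaves and 5.59 ± 2.15 RPM (SD, n = 11) in Always Red leaves. The smallest folds were at 28 nt plus, 1.27-fold (95% interval 0.839 to 1.93), and at 27 nt plus, 1.36-fold (95% interval 0.940 to 1.99). The 28 nt plus class averaged 22.0 ± 10.5 RPM in Fully Red leaves and 17.0 ± 8.25 RPM in Always Red leaves. At 21 nt, the minus strand averaged 405 ± 373 RPM in Fully Red leaves and 115 ± 34.7 RPM in Always Red leaves, while the plus strand averaged 281 ± 220 RPM in Fully Red leaves and 99.0 ± 29.8 RPM in Always Red leaves. These 2 classes alone made up 40.4% and 25.4% of the difference in arithmetic mean RPM, which the highest Fully Red libraries carry.

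The count of called classes depended on the events and on the unit of replication, while every class kept a higher Fully Red mean in the test of all libraries. Both count models, edgeR's quasi-likelihood test and DESeq2's Wald test, called 17 classes higher and 0 lower. Without MK016 or without MK034 the permutation test called 7 classes, without MK042 or without MK045 it called 10, and without Always Red MK034 number 2 it called 12, while without Fully Red MK044 number 3 it called 17. With 1 mean per event it called 0 classes, with 9 at an unadjusted exact permutation p under 0.05.

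**Figure D2:**
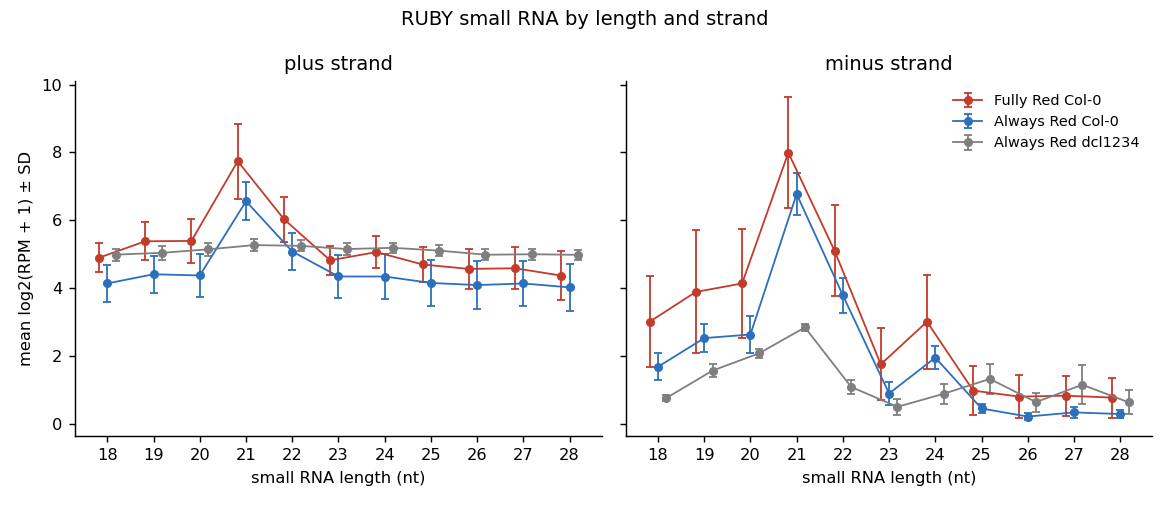
Mean log2(RPM + 1) with SD of each length from 18 to 28 nt on the plus strand (left) and the minus strand (right), in 13 Fully Red Col-0, 11 Always Red Col-0 and 8 Always Red dcl1234 libraries. The 21 nt class is the highest on both strands in both Col-0 classes, and dcl1234 is nearly even over the lengths on the plus strand and low on the minus strand.

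**Figure D3:**
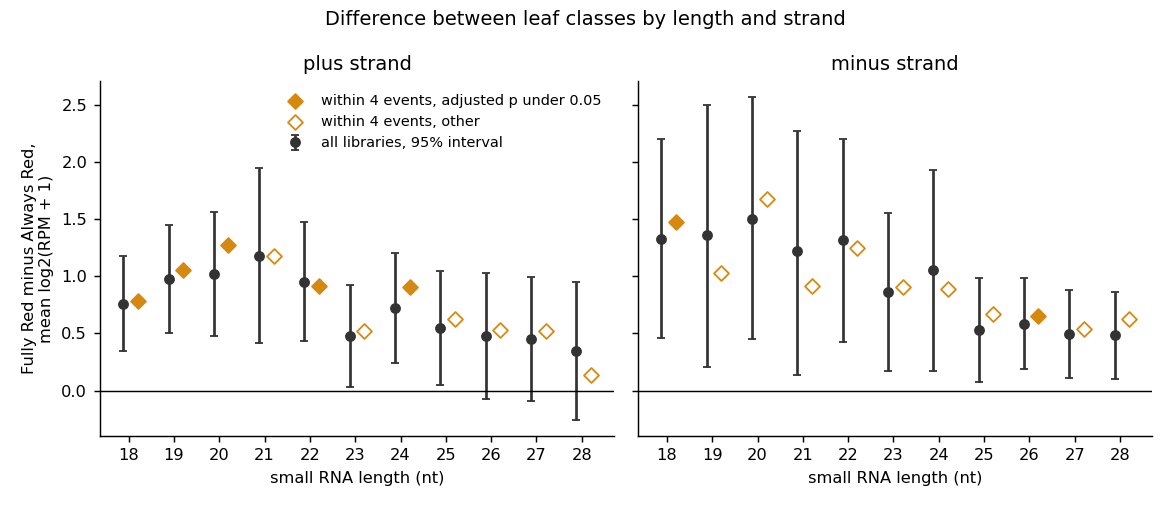
Difference of Fully Red minus Always Red in mean log2(RPM + 1) for each length, plus strand left and minus strand right. Circles with 95% intervals use all libraries, and diamonds are the mean difference within the 4 events that gave both classes, filled where the adjusted p was under 0.05. All 22 circles and all 22 diamonds lie above 0, and the intervals of 26, 27 and 28 nt plus include 0.

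The dcl1234 libraries gave the reads that are found when DICER-LIKE genes are mutated. Their totals ranged from 343 to 447.3 RPM (median 392 RPM). The Always Red Col-0 median of 446.8 RPM lay within this range, near its upper end, and 12 of 13 Fully Red totals exceeded the highest dcl1234 total. The make-up differed: minus strand reads were 3.72% to 7.29% of dcl1234 reads, and 21 nt reads were 10.9% to 12.0%. The 21 nt minus class, which averaged 6.19 ± 0.540 RPM in dcl1234 (SD, n = 8), was higher in 13 of 13 Fully Red and in 11 of 11 Always Red libraries than in every dcl1234 library. So was the 22 nt minus class, which averaged 1.15 RPM in dcl1234. At 22 nt plus the means were 37.2 RPM in dcl1234, 34.9 RPM in Always Red and 71.5 RPM in Fully Red leaves. There 3 of 11 Always Red and 10 of 13 Fully Red libraries lay above every dcl1234 library. The plus strand went the other way in most Always Red libraries: it ranged from 104 to 504 RPM there, against 322 to 428 RPM in dcl1234. Of the 11 Always Red libraries, 8 lay below every dcl1234 library. Always Red MK016 number 2 at 504 RPM and MK010 number 1 at 467 RPM lay above them all. MK016 number 1, at 405 RPM, lay within their range. At 25 to 28 nt on the plus strand, the means were 98.0 ± 38.9 RPM in Fully Red leaves, 71.8 ± 34.2 RPM in Always Red leaves and 126 ± 13.1 RPM in dcl1234. At 24 nt plus, 9 of 11 Always Red libraries lay below every dcl1234 library, as did 7 of 13 Fully Red libraries. The dcl1234 plants come from 2 other events, so genotype and event cannot be told apart here, and no test was made. Subtracting the dcl1234 mean with negative values set to 0 leaves little of the plus strand in Always Red leaves: a median of 7 of the 11 plus strand classes became 0 in Fully Red and of 10 in Always Red libraries. The larger log2 differences after subtraction, such as 2.19 on the plus strand, are set by those zeros and the pseudocount.

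The 4 events that gave both classes hold the event fixed, and within them the total was again higher in Fully Red leaves. In MK016 the Fully Red totals were 1557, 683 and 2989 RPM, against 597 and 717 RPM in Always Red libraries. In MK042 the Fully Red total was 1154 RPM, against 435 and 475 RPM in Always Red libraries. In MK045 it was 1944 RPM, against 447 RPM in each of the Always Red libraries. Fully Red libraries of these events therefore lay above their Always Red counterparts, except MK016 number 4, which lay between them. In MK044 the Fully Red total was 446 RPM, against 362 and 373 RPM in Always Red libraries. The folds by event were 2.25 in MK016, 2.53 in MK042, 1.21 in MK044 and 4.34 in MK045. Averaged over events, the total was 2.34-fold higher (exact permutation within events, p = 0.00741, adjusted over 7 levels 0.0104, where 270 assignments allow no p below 0.0037). The plus strand, 22 nt, 24 nt and other lengths passed at the same adjusted p, with folds of 2.07, 2.15, 2.11 and 2.09, and were higher in 4 of 4 events. Without MK016 only 27 assignments remained, the smallest possible exact permutation p was 0.037, and 0 of the 7 levels passed after adjustment, with 5 at that unadjusted p.

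The minus strand and the 21 nt class differed in direction between MK044 and the other events. In MK016 the Fully Red minus strand held 663, 247 and 1762 RPM, against 192 and 214 RPM in Always Red libraries. In MK042 it held 566 RPM in the Fully Red library, against 130 and 174 RPM in Always Red libraries. In MK045 it held 1023 RPM in the Fully Red library, against 166 and 137 RPM in Always Red libraries. In MK044 it held 26.5 RPM in the Fully Red library, against 124 and 135 RPM in Always Red libraries. All 5 Fully Red libraries of the first 3 events thus lay above their Always Red counterparts and the single MK044 library lay below them. At 21 nt the MK044 values were 85.1 RPM in the Fully Red library, against 179 and 193 RPM in Always Red libraries. Over the 4 events the minus strand was 2.04-fold higher (exact permutation p = 0.204) and the 21 nt class 2.22-fold higher (exact permutation p = 0.0667, adjusted p = 0.0778), and neither passed. Leaving out the MK044 library, which has 404 transgene reads, leaves 3 events, and both then passed, at log2 differences of 2.12 and 1.90 (exact permutation, adjusted p = 0.0222). Of the 22 classes, 7 (31.8%) passed within the 4 events, all higher in Fully Red leaves, and 5 of these were on the plus strand. Without the MK044 library 16 passed, without MK016, MK042 or MK045 0 passed, with 9, 8 and 5 classes at an unadjusted exact permutation p under 0.05.

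**Figure D4:**
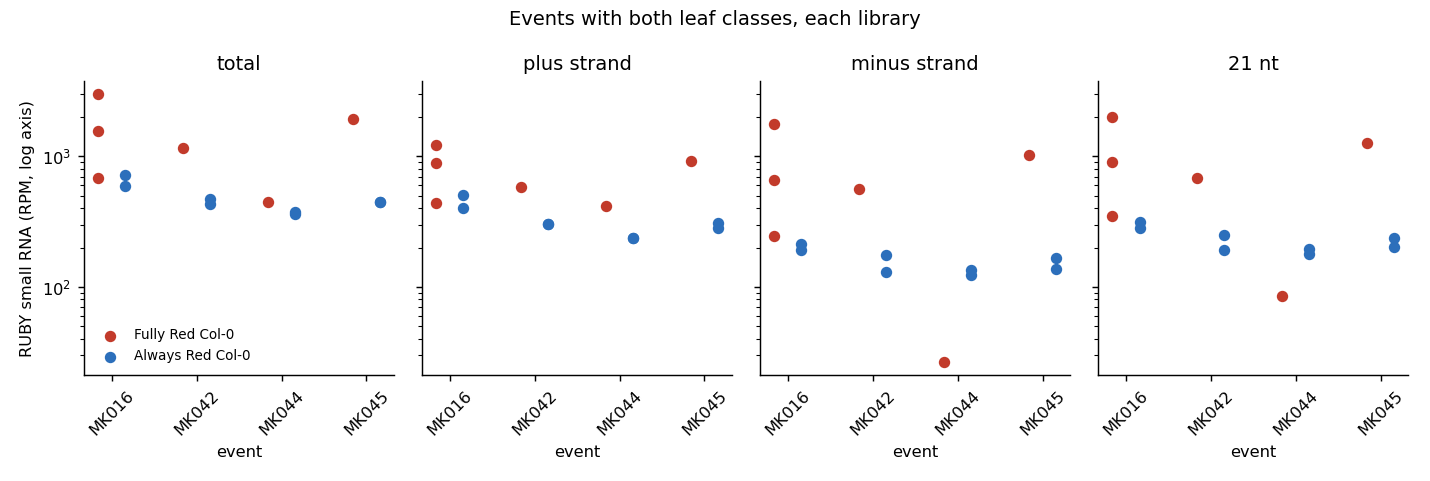
RUBY small RNA in RPM on a log axis for each library of the 4 events with both leaf classes, as the total, the plus strand, the minus strand and the 21 nt class. Fully Red libraries stand left of Always Red libraries in each event. The single Fully Red library of MK044 lies above its Always Red libraries in the total and on the plus strand and below them on the minus strand and at 21 nt.

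Whether the extra small RNA of Fully Red leaves also has another make-up was asked with 10 shares and ratios. Over all libraries 0 of 10 passed the permutation test with adjustment over 10, and 1 had an unadjusted p under 0.05. The 21 nt share was 51.9% ± 14.7 of reads in Fully Red leaves (SD, n = 13) and 47.6% ± 5.15 in Always Red leaves (SD, n = 11; permutation, adjusted p = 0.529). Reads on the minus strand made up 38.9% ± 14.7 in Fully Red leaves and 32.6% ± 4.30 in Always Red leaves (permutation, adjusted p = 0.458). The 95% intervals of these differences, from -5.29 to 13.8 and from -3.20 to 15.7 percentage points, include 0 and shifts of over 10 points. The 22 nt share was 10.4% ± 0.439 in Fully Red leaves and 10.7% ± 0.555 in Always Red leaves (permutation, adjusted p = 0.458). Within the 4 events 0 of the 10 measures passed and 2 had an unadjusted exact permutation p under 0.05. There the Fully Red 21 nt share was 2.35 points higher and the Fully Red minus strand share 5.03 points higher (exact permutation, adjusted p = 0.841 for both). The 22 nt share differed by -0.78 points, lower for Fully Red libraries in 4 of 4 events (exact permutation p = 0.0111, adjusted p = 0.111).

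Composition depended on the shallow MK044 library. Its 21 nt share was 19.1% (Wilson 95% interval 15.5 to 23.2) and its minus strand share was 5.94% (Wilson 95% interval 4.02 to 8.69), against 33.9% to 67.3% and 25.3% to 59.0% in the other 12 Fully Red libraries. Its 21 nt reads were 19.5% minus strand (Wilson 95% interval 12.2 to 29.7), against 52.3% to 63.8% in the other Fully Red libraries and 50.5% to 56.0% in Always Red libraries. Its values thus lay near those of dcl1234 for the minus strand and between dcl1234 and the other Col-0 libraries at 21 nt. It held 0 minus strand reads of 24 nt, which at 3 reads allows up to 3.32 RPM. The intervals and this limit describe counting error alone, since reads copied by PCR were not marked as separate molecules. Without it, the pooled differences were 7.11 points for the 21 nt share and 9.10 points for the minus strand share, and neither passed (permutation, adjusted p = 0.117 and 0.108). Of the 10 measures, 1 passed over all libraries without it: among 21 nt reads, the part on the minus strand was 3.79 percentage points higher in Fully Red leaves (permutation test, adjusted p = 0.0308). Within the 3 remaining events, a choice made after seeing the data, 7 of 10 passed, with the 21 nt share 13.7 points higher and the minus strand share 16.5 points higher in Fully Red than in Always Red leaves (higher in 3 of 3 events, adjusted p = 0.037 by exact permutation). In those events the differences were -1.85 points for the 24 nt share (exact permutation, adjusted p = 0.0476) and -0.64 points for the 22 nt share (exact permutation, adjusted p = 0.037), both lower in Fully Red leaves.

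Level and make-up can be read side by side in the single libraries. The 3 Fully Red libraries with the highest totals, MK016 number 5, MK040 number 2 and MK045 number 3, had minus strand shares of 59.0%, 53.1% and 52.6% and 21 nt shares of 67.3%, 67.1% and 65.4%. Fully Red MK041 number 1, at 617 RPM, had a minus strand share of 26.99% and a 21 nt share of 40.7%, and MK025 number 1, at 734 RPM, had 25.3% and 33.9%. Fully Red MK041 number 2, at 464 RPM, had 38.6% and 54.5%, and MK040 number 1, at 1239 RPM, had 51.2% and 65.6%. Always Red MK010 number 1, at 615 RPM, had 24.1% and 37.6%. Each Fully Red library at 1154 RPM or more had a minus strand share of at least 42.6% and a 21 nt share of at least 58.0%. Each one at 734 RPM or less had at most 38.6% and 54.5%, so higher totals went with higher shares, which was not tested. The total contains the 21 nt and minus strand reads, so such a relation is partly built in. The cut was placed at a gap seen in these same libraries. Among those at 734 RPM or less the order differed: Fully Red MK041 number 2 had higher shares than MK041 number 1 and MK025 number 1 at a lower total. Always Red libraries spanned 24.1% to 38.0% for the minus strand and 37.6% to 54.3% for 21 nt. On the minus strand alone, the 22 nt reads per 100 reads of 21 nt had a median of 11.9 in Fully Red and 11.8 in Always Red libraries, and the 24 nt reads a median of 2.68 in both classes. These medians differed little, but 21 nt reads made up 75.4% ± 4.99 of minus strand reads in Fully Red leaves (SD, n = 13) and 78.6% ± 0.977 in Always Red leaves (SD, n = 11), with 7 Fully Red libraries below all Always Red libraries (permutation p = 0.035, adjusted p = 0.35). Within the 4 events the mean 21 nt share of minus strand reads was lower in Fully Red leaves in 4 of 4 events (exact permutation p = 0.0222, adjusted p = 0.111). In MK016 this rests on number 5 at 72.9%, since numbers 3 and 4, at 79.8% and 80.5%, lay above both Always Red libraries. Without MK044 number 3 the difference was -2.10 points over all libraries (permutation p = 0.054, adjusted p = 0.108). Within the 3 remaining events it was -2.34 points (exact permutation p = 0.122, adjusted p = 0.153).

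**Figure D5:**
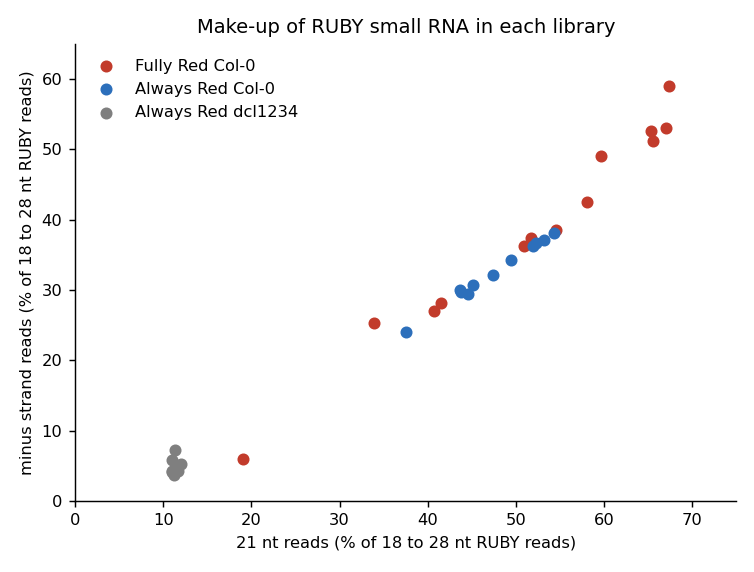
Share of 21 nt reads (x axis) and of minus strand reads (y axis) among the 18 to 28 nt RUBY reads, both in percent, 1 point per library, for 13 Fully Red Col-0, 11 Always Red Col-0 and 8 Always Red dcl1234 libraries. Fully Red points run from 25.3% to 59.0% minus strand apart from MK044 number 3 at 5.94%, Always Red points lie between 24.1% and 38.0%, and dcl1234 points between 3.72% and 7.29%.

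Fully Red libraries were more variable than Always Red libraries in the measures tied to 21 nt and the minus strand. The mean absolute deviation from the class median of the 21 nt level was 1.09 in Fully Red and 0.343 in Always Red libraries on the log2 scale (permutation, adjusted over 5 measures 0.0254). For the 21 nt share it was 11.2 percentage points in Fully Red and 4.22 points in Always Red libraries (permutation, adjusted p = 0.0254). For the minus strand share it was 11.4 points in Fully Red and 3.50 points in Always Red libraries (permutation, adjusted p = 0.0231). These 3 calls also held without the MK044 library and with 1 mean per event. The total, at 0.758 in Fully Red and 0.365 in Always Red libraries, did not pass (permutation, adjusted p = 0.119), and neither did the other lengths, at 0.453 in Fully Red and 0.466 in Always Red libraries (permutation, adjusted p = 0.938).

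Part of this spread lies between libraries of 1 event. Fully Red MK016 gave 683 to 2989 RPM over 3 libraries, MK040 gave 1239 and 2225 RPM, MK041 gave 617 and 464 RPM, and MK043 gave 588 and 598 RPM. Over the 4 Fully Red events with at least 2 libraries, 63.6% of the variance of the log2 total lay between events (exact permutation p = 0.155, adjusted over 8 measures 0.31). Over the 5 such Always Red events it was 67.3% (exact permutation p = 0.0349, adjusted p = 0.14), and for 24 nt 84.5% (exact permutation p = 0.00635, adjusted p = 0.0508). None of the 8 event tests passed after adjustment.

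The classes did not come from the same set of events, so each class was also compared between the 4 events that gave both classes and the events that gave only it. Fully Red libraries of the 4 events averaged 1462 ± 928 RPM (SD, n = 6) and those of the other events 924 ± 626 RPM (SD, n = 7). Always Red libraries averaged 482 ± 119 RPM (SD, n = 8) in the 4 events and 386 ± 234 RPM (SD, n = 3) in the other events. The total was 1.52-fold higher in the 4 events among Fully Red and 1.42-fold higher among Always Red libraries, and no level of either class passed the exact permutation test (lowest adjusted p of 14 tests 0.407). The Fully Red 24 nt level alone had an unadjusted p under 0.05, at 1.50-fold higher in the 4 events (exact permutation p = 0.0309).

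Under ZmUBQ, named for a maize ubiquitin promoter, the same contrast was smaller and not separated from 0. ZmUBQ Fully Red totals ranged from 224 to 584 RPM with a median of 232 RPM (n = 7), against 136 to 343 RPM with a median of 237 RPM in Always Red libraries (n = 4). The classes overlapped, and the fold was 1.23 (exact permutation p = 0.388, adjusted over 7 levels 0.636). The 35S fold was 1.84 times the ZmUBQ fold for the total, which did not pass as a test of the difference between promoters (permutation p = 0.112, adjusted p = 0.197). At 24 nt the ZmUBQ fold was 0.920 and the 35S fold was 2.02 times it (permutation p = 0.0203, adjusted p = 0.142). No level passed this test, so the promoters were not shown to differ in this contrast. The ZmUBQ Fully Red libraries came from 3 events and the Always Red from 2, so libraries repeat lines here too. None of these events carried 35S RUBY, and the ZmUBQ libraries were deposited as a separate block of samples. Promoter, event and block therefore cannot be told apart.

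All 13 Fully Red libraries had less RUBY small RNA than the green parts and the red parts of the same event and number, and all 9 that had a fully green partner had less than it. Green parts held 8.73 to 82.4 times the Fully Red total, red parts 1.26 to 35.1 times and fully green leaves 11.5 to 108 times. Over pairs, no relation between the totals passed among the 6 computed. For green parts Pearson's r of log2 totals was 0.56 and Spearman's rho 0.56 (n = 13 pairs, permutation p = 0.0477 and 0.0486, adjusted p = 0.073 for both), and without the 2 pairs farthest from the median r was 0.39. For red parts r was 0.62 and rho 0.67 (n = 13 pairs, permutation p = 0.0231 and 0.0142, adjusted p = 0.0692 for both), and without the 2 farthest pairs r was 0.60. For fully green leaves r was 0.38 and rho 0.25 (n = 9 pairs, exact permutation p = 0.306 and 0.521), and without the 2 farthest pairs r was -0.06. Several pairs share an event, so the relations were also computed over 1 mean per event, added after seeing the data, with exact permutation and adjustment over 6. For green parts r was then 0.81 and rho 0.81 over 8 events (exact permutation, adjusted p = 0.0414 and 0.0436), and r was 0.75 without the 2 farthest events. For red parts r was 0.45 and rho 0.38 over 8 events (exact permutation, adjusted p = 0.307 and 0.36), and r was 0.65 without the 2 farthest events. For fully green leaves r was 0.90 and rho 0.89 over 6 events (exact permutation, adjusted p = 0.0417 and 0.05), and r was 0.79 over the 4 events left without the 2 farthest. The order of the 3 relations thus changed with the unit of replication, and only the event means of green parts passed by both measures.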

How the data were processed

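Small RNA of 4-week-old leaves was extracted with TRIzol, size-enriched and made into TruSeq Small RNA libraries, per the labels' protocols. The deposited files give read counts of the RUBY transgene by length and strand for each library, with the mapped reads as a count. The deposited RPM was computed by the authors as count divided by mapped reads times 1000000, which was checked on all lines (0 deviated beyond a relative tolerance of 1e-06). The submitters' processing notes name TAIR10. The aligner, trimming and treatment of reads with several matches are not given in the sources used here. Classes with no line were set to 0.

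Levels are sums of RPM. Tests used log2(RPM + 1) and were two-sided permutation tests of mean differences, enumerated exactly with under 10 libraries in a group and otherwise run with 100000 resamples (smallest p 1e-05). Within events, labels were permuted exactly inside each event. The test between events is one-sided by construction, and the promoter test permuted residuals of promoter and class. Intervals hold the shifts not rejected at 0.05. Benjamini-Hochberg adjustment was made within each family, and adjusted p under 0.05 passed. Counts were also tested with edgeR 4.0.16 (quasi-likelihood) and DESeq2 1.42.0 (Wald), with mapped reads as library size. Python 3.11.15, numpy 2.4.6, scipy 1.17.1 and R 4.3.3 were used. The permutation test over all libraries, its intervals, the within-event test of the total and edgeR were also run on simulated data. Those data held no event effects, and the other tests were not checked this way. The classes with values in the text are the total, the strands, 21, 22 and 24 nt, the other lengths, and the 2 largest and 2 smallest folds among the 22. The leaf classes, measures and tests were chosen with earlier results of these data known. Alternatives were pseudocounts, low values set to 0, ranks, event means, libraries under 8 M mapped reads left out, each library and event left out, a replicate block and subtraction of the dcl1234 mean. Averaging of library pairs within sampling noise, relations over event means and most alternatives within events, were added after seeing the data.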

Additional observations from a re-analysis of the deposited data

Results flagged for a closer look

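The Fully Red library of MK044 number 3 stood apart from the other Fully Red libraries of the events with both classes: its 21 nt share was 19.1% against 50.9% in the next lowest of 6. It also ran opposite to MK016, MK042 and MK045, in which every Fully Red library had a higher minus strand level, 21 nt level and share of each than the Always Red libraries. In MK044 the single Fully Red library minus the Always Red mean was -103 RPM on the minus strand, -101 RPM at 21 nt, -31.6 percentage points for the 21 nt share and -29.4 points for the minus strand share. This difference between events was not tested, and the library held 404 transgene reads.

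Among the Fully Red libraries of the other events, MK040 number 2 stood apart on the plus strand, with 1043 RPM against 604 RPM in the next highest of 7. Among the ZmUBQ Fully Red libraries, MK054 number 3 stood apart from the next highest of 7. It held 584 RPM in total against 347 RPM, 300.3 RPM on the minus strand against 135 RPM, 382 RPM at 21 nt against 141 RPM, and 52.0 RPM at 22 nt against 33.1 RPM. These 6 values came from 54 groups and measures examined. For independent, normally distributed values, chance alone puts about 1 in 20 groups past this criterion. The RPM values are skewed and the measures overlap, as in the values of ZmUBQ MK054 number 3, so the rate that applies here is not known.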

How the results depend on the processing

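Values are log2 differences of Fully Red minus Always Red leaves unless they are counts, percentage points or ranks. The total, plus strand, 22 nt, 24 nt and other lengths kept their direction and passed under every alternative over all libraries (subtraction of the dcl1234 mean, one of these, set many Always Red plus strand values to 0). The minus strand no longer passed at 1.11 without MK016, 1.11 without MK034, 1.03 without MK040, 1.17 without MK045, 1.08 with 1 mean per event and 1.38 over the pooled libraries of the 4 events, and 21 nt no longer passed at 1.08 with 1 mean per event. The number of classes called was 7 without MK016, 7 without MK034, 10 without MK042, 10 without MK045, 11 at a pseudocount of 0.1 RPM and 0 with 1 mean per event (9 at an unadjusted permutation p under 0.05; edgeR and DESeq2 each called 17 on all libraries). Leaving out single libraries gave 12 to 21 called classes. Relations with other leaf classes, none of which passed over pairs, passed over event means for green parts (r 0.81) and by r for fully green leaves (r 0.90).

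Within the 4 events and without MK016, the total (1.25), plus strand (1.14), 22 nt (1.10), 24 nt (1.26) and other lengths (1.19) no longer passed, with 27 assignments left. Without MK044, which is the same as without its library under 8 M mapped reads, the minus strand (2.12), 21 nt (1.90), the 21 nt share (13.7 points) and the minus strand share (16.5 points) passed. By ranks the minus strand and 21 nt passed too, each at a difference in mean rank of 3.75. Within events, the called classes numbered 16 without MK044 or its library, 0 without MK016, 0 without MK042, 0 without MK045 and 4 at a pseudocount of 0.1 RPM. The difference in spread of the other lengths turned to 0.0035 at a pseudocount of 10 RPM and to 0.023 without the shallow library, and passed under neither. No spread or promoter result changed its call. Apart from the numbers of assignments and libraries, the causes were not tested.

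Label numbers run on within an event, so Fully Red and Always Red libraries of 1 event never share a number, and the numbers do not pair them. The replicate block used only libraries numbered 1 and 2, so it compared a subset and joined different events in each block. It kept all 11 Always Red libraries but only the 7 Fully Red libraries from outside the 4 events with both classes. The shallow library was thus left out, and no event stood on both sides. In this subset the total difference was 0.92 (permutation, adjusted p = 0.018), and the other 6 levels passed as well.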
